A study of Mus musculus with 20 samples.

Results

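The genes described here are 49 genes of the cell cycle, 15 that act in DNA replication and its licensing and 34 that act in mitosis and cytokinesis, out of 17076 genes measured on two-colour microarrays of the mouse gut. A gene was matched to the probes that carry its name, or for Cdk1 its older symbol Cdc2a, and the brightest probe stood for it. All 49 genes had a probe that passed the filter on dim signal, and 18 had more than 1 such probe. Every one of the 49 was well above background on at least 18 of the 20 arrays in KO and at least 19 of 20 in wild type, and none was saturated on any array.

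The series set Spdef knockout (KO, Spdef-/-) mice against wild type mice. Spdef is an Ets-domain transcription factor of secretory cells in the gut. RNA came from the entire dissected colon or small intestine, of adults at postnatal day 30 (P30) or of fetuses at E18.5, and each pool held RNA of 2 to 3 littermates. The groups were adult colon (3 pairs of a KO and a wild type pool), fetal colon (2 pairs), adult small intestine (2 pairs) and fetal small intestine (3 pairs), each pair on 2 arrays with the dyes swapped, 20 arrays on 6 slides in all. The labels give no strain, name no Cre line or tissue restriction, and do not say whether the 2 pools of a pair came from one litter, so p-values measure the spread between pools. In RNA of an entire organ, fewer cells of a type and less RNA per cell cannot be told apart.

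Spdef was lower in KO on 20 of 20 arrays, with log2 ratios of KO over wild type between -4.09 and -1.20. Of all probes, 40.3% to 72.1% were well above their background, depending on the channel, and the lowest value belonged to an array of adult colon pair 1. Fetal small intestine pairs 1 and 2 differed by less than the noise between arrays (variance ratio 0.551, where 1 stands for no difference beyond noise) and were counted as 1 replicate. The tissue labels of 2 fetal pairs went against their markers. In wild type, the small intestinal lactase gene Lct was at log2 intensities of 15.99, 16.06 and 8.76 in fetal small intestine pairs 1, 2 and 3 and of 16.37 and 9.08 in fetal colon pairs 1 and 2, while the colonic carbonic anhydrase Car1 was at 7.57, 7.57 and 11.12 and at 7.52 and 10.85. Fetal small intestine pair 3 thus had the markers of colon and fetal colon pair 1 those of small intestine, and both lay on one slide. The labels were kept, and values without that slide are given for the comparisons that these pairs enter.

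Dividing cells copy their DNA in S phase, when the MCM helicase opens origins that Cdc6 has licensed and Pcna, the sliding clamp, holds the polymerases on DNA. They then enter mitosis under cyclin B and Cdk1, with Plk1 and the Aurora kinases building the spindle and the anaphase-promoting complex ending the phase. E2F factors switch on the replication genes, and B-Myb (Mybl2) and Foxm1 the mitosis genes, which are known to carry a short promoter element called CHR, often beside CCAAT boxes. In the adult gut dividing cells lie in the crypts, where goblet and Paneth cells leave the cycle as they mature, while in the fetus both epithelium and mesenchyme divide.

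The promoters of 4 members are shown because their genes had the smallest adjusted p among mitosis genes (Mad2l1, Kif23) and replication genes (Mcm5, Rrm1) in adult colon. Each sequence is RefSeq's window from 250 bases before to 50 bases after the gene's start in build GRCm38.p6, 5′ to 3′ on the gene's strand, and capitals mark matches to CCAAT, to the CHR forms TTTGAA and TTCGAA and to the E2F forms, which are TTGGCGC or TTCCCGC or TTGCCGC or TTCGCGC, on either strand. The windows lie at chr6:66534971-66535270 on the plus strand (Mad2l1), chr9:61946750-61947049 on the minus strand (Kif23), chr8:75109259-75109558 on the plus strand (Mcm5) and chr7:102441445-102441744 on the plus strand (Rrm1).
Mad2l1: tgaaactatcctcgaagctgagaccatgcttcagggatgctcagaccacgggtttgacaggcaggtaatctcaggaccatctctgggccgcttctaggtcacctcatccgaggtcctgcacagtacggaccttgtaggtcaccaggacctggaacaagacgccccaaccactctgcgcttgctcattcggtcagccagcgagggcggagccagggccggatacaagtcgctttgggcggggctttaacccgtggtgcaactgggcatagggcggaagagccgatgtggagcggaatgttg
Kif23: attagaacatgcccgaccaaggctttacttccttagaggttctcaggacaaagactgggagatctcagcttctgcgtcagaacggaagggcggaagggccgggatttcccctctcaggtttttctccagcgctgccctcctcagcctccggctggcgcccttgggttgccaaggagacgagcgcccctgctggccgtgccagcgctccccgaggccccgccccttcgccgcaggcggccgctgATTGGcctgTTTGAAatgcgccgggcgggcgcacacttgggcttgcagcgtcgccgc
Mcm5: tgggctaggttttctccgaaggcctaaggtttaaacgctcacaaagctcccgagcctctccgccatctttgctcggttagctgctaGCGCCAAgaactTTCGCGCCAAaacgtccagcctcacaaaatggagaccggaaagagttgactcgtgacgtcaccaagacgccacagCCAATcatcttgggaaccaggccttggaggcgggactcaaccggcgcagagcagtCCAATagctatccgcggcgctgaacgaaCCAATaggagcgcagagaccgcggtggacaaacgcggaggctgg
Rrm1: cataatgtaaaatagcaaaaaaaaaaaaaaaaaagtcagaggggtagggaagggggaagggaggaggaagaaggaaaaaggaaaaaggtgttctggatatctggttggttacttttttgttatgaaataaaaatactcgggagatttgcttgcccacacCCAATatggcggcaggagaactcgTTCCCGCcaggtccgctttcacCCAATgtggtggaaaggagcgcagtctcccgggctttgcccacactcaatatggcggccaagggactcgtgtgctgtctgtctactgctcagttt
The Kif23 window held 1 inverted CCAAT match, starting 7 bases before the gene's start, followed by 1 CHR match. The Mcm5 window held 3 CCAAT matches and 3 E2F matches, the first of which starts 164 bases before the gene's start, and the E2F matches at 152 and 149 bases overlap. The Rrm1 window held 2 CCAAT matches and 1 E2F match at 67 bases before the start, and the Mad2l1 window held none of these letters.

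The table held windows for 42 of the 49 members, 45 windows in all because Mcm7, Prc1 and Uhrf1 have 2 each. Mitosis and replication genes differed in the letters they carried, which the choice of genes did not use. A CHR form was in 22 of 30 windows of mitosis genes (73.3%) and in 2 of 15 windows of replication genes (13.3%), against 19.2% of all 32851 windows. An E2F form was in 10 of 15 windows of replication genes (66.7%) and in 4 of 30 windows of mitosis genes (13.3%), against 9.6% of all windows. CCAAT, in either orientation, was in 25 of 30 windows of mitosis genes (83.3%) and 11 of 15 of replication genes (73.3%), against 37.4% of all windows. These are counts of letters in a window, and no binding was measured.

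In adult colon, cell cycle genes were higher in KO pools than in wild type pools, with changes of at most 0.56 on the log2 scale. Of the 49 genes, 34 rose and 0 fell (limma, adjusted p under 0.05), where 3.93% of all 17076 genes rose, 5.66% fell and 9.59% passed in either direction. The median log2 ratio of the 49 was 0.33, that is 25.7% higher in KO, against -0.0025 over all genes. The lowest of the 49 ratios was 0.07 and the highest 0.56, and 47 of the 49 were higher in KO in every one of the 3 pairs, where 21.8% of all genes were. On single arrays, 36 of the 49 genes were higher in KO on 6 of 6 arrays, a count that was not taken over all genes. A further 20 probes of 18 of these genes passed the filter on dim signal, and 20 of the 20 were higher in KO, with log2 ratios between 0.05 and 0.47.

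**Figure D1:**
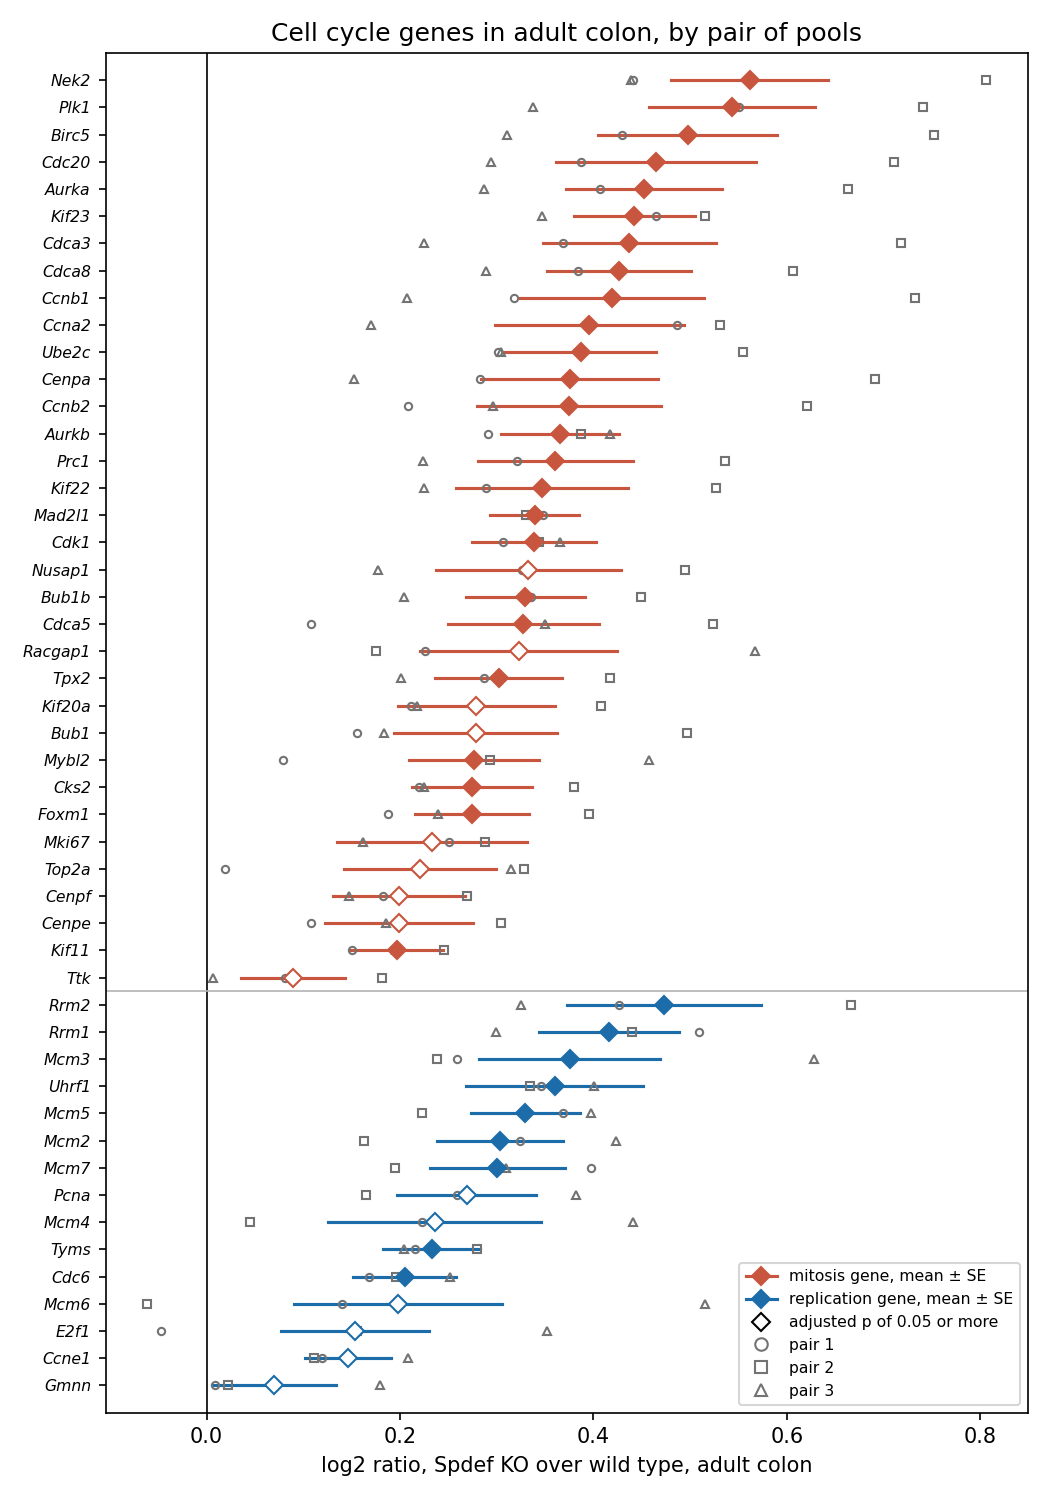
Log2 ratio of KO over wild type for the 49 genes in adult colon, mitosis genes above and replication genes below, with the mean and limma standard error of 3 pairs as a diamond and the pairs as open grey symbols. Filled diamonds are the 34 genes with an adjusted p under 0.05, all to the right of 0, and pair 2 (squares) lies farthest right for 29 of 34 mitosis genes.

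Among the mitotic kinases, 4 of 5 rose. Nek2, a kinase of the centrosome, had log2 ratios of 0.44, 0.81 and 0.44 in pairs 1, 2 and 3, and its mean of 0.56 ± 0.081 (SE, n = 3, adjusted p = 0.00824) was the largest of the 49. Plk1, which drives mitotic entry and spindle assembly, had ratios of 0.55, 0.74 and 0.34 and a mean of 0.54 ± 0.086 (adjusted p = 0.0108). Aurkb, the kinase of the chromosomal passenger complex, had ratios of 0.29, 0.39 and 0.42 and a mean of 0.37 ± 0.061 (adjusted p = 0.0132). Pair 2 was the highest for Nek2 and Plk1 but not for Aurkb, and every pair was above 0. Aurka, the spindle pole kinase, averaged 0.45 ± 0.081 (adjusted p = 0.0163), whereas the checkpoint kinase Ttk averaged 0.09 ± 0.054 and did not pass (adjusted p = 0.323).

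Genes of the spindle and the chromosomes rose as well. Mad2l1, a spindle checkpoint protein that holds the anaphase-promoting complex back, had ratios of 0.35, 0.33 and 0.34, the closest agreement between pairs among the genes named here, and a mean of 0.34 ± 0.046 (adjusted p = 0.00664). Kif23, the kinesin of the spindle midzone, whose promoter carries the CHR and CCAAT matches shown above, had ratios of 0.46, 0.51 and 0.35 and a mean of 0.44 ± 0.063 (adjusted p = 0.00763). Cdca8, the passenger complex subunit borealin, had ratios of 0.38, 0.61 and 0.29 and a mean of 0.43 ± 0.074 (adjusted p = 0.0153). By role, 4 of 4 passenger, cohesion and division-associated genes rose (Birc5, which encodes survivin, by 0.50), as did 5 of 5 of Cdk1 and its mitotic cyclins and partner (Cdk1 by 0.34, Ccna2 by 0.40, Ccnb2 by 0.37), 2 of 2 genes of the anaphase-promoting complex step (Cdc20 by 0.46, Ube2c by 0.39), 2 of 3 checkpoint genes, 5 of 8 genes of spindle, midzone and cytokinesis, and 1 of 3 centromere genes (Cenpa, the centromeric histone, by 0.38).

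Cyclin B1, Ccnb1, had ratios of 0.32, 0.73 and 0.21 in pairs 1, 2 and 3 and a mean of 0.42 ± 0.095 (adjusted p = 0.0342). Foxm1, the transcription factor of mitosis genes, had ratios of 0.19, 0.40 and 0.24 and a mean of 0.27 ± 0.059 (adjusted p = 0.0294), and the other such factor, Mybl2, rose by 0.28. Mki67 and Top2a, both widely used as markers of dividing cells, did not pass. Mki67 had ratios of 0.25, 0.29 and 0.16 and a mean of 0.23 ± 0.098 (adjusted p = 0.169). Top2a, the topoisomerase that untangles sister chromatids, had ratios of 0.02, 0.33 and 0.31 and a mean of 0.22 ± 0.078 (adjusted p = 0.114). Both were above 0 in every pair, with Top2a near 0 in pair 1.

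Of the replication genes, 9 of 15 rose, with a median of 0.27 over the 15 against 0.34 over the 34 mitosis genes, of which 25 rose. Rrm1, the large subunit of the reductase that makes deoxynucleotides, had ratios of 0.51, 0.44 and 0.30 and a mean of 0.42 ± 0.072 (adjusted p = 0.0149). All 3 genes of deoxynucleotide supply rose, with Rrm2, the small subunit of that enzyme, at 0.47 and Tyms, thymidylate synthase, at 0.23. Of the 6 MCM helicase subunits, 4 rose. Mcm5 had ratios of 0.37, 0.22 and 0.40 and a mean of 0.33 ± 0.056 (adjusted p = 0.0142), and Mcm2 had ratios of 0.32, 0.16 and 0.42 and a mean of 0.30 ± 0.065 (adjusted p = 0.0293), pair 2 being the lowest for both. Mcm3 at 0.38 and Mcm7 at 0.30 also passed, whereas Mcm4 at 0.24 ± 0.11 (adjusted p = 0.208) and Mcm6 at 0.20 ± 0.11 (adjusted p = 0.276) did not. Pcna had ratios of 0.26, 0.17 and 0.38 and a mean of 0.27 ± 0.072, just outside the threshold (adjusted p = 0.053). The licensing factor Cdc6 rose by 0.20 and Uhrf1, which keeps DNA methylation at replication forks, by 0.36, while E2f1 (0.15 ± 0.077), cyclin E1 (Ccne1, 0.15 ± 0.045) and the licensing inhibitor Gmnn (0.07 ± 0.064) did not pass.

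The 3 pairs shared the direction but not the balance of the phases. Mitosis genes had medians of 0.29, 0.50 and 0.23 in pairs 1, 2 and 3, and replication genes of 0.26, 0.19 and 0.35. Pair 2 held the highest of the 3 ratios for 29 of 34 mitosis genes, and pair 3 for 11 of 15 replication genes. In the plot of all pairs, these are the only pairs in which the median of mitosis genes is above 0.2.

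The count of 34 rested on all pairs. It was 4 without adult colon pair 1, 6 without pair 2 and 19 without pair 3, and, through the shared estimate of the spread, 15 without either fetal colon pair, 22 without either adult small intestine pair and 19 without the slide of the 2 fetal pairs whose markers go against their labels. With median centring of the arrays in place of loess it was 0, and with adult colon fitted alone it was 0 too, where 2 and 45 of the 49 had an unadjusted p under 0.05. In the main fit (limma), 44 of the 49 and 4713 of all 17076 genes had one. Counts over all genes in the alternative runs are not given here, so a change over the whole array cannot be told from one in the 49. The median log2 ratio of the 49 was between 0.24 and 0.40 in every alternative run, and every measured gene was above 0 except 1 of 49 in the authors' value table. Calls of single genes differed in how often they held. Foxm1 lost its call in 12 of 22 alternatives, Ccnb1 in 10 of 23 and Mcm2 in 9 of 23. Rrm1 and Cdca8 lost theirs in 6 of 23 each and Mad2l1 in 2 of 23. Pcna gained a call in 4 of 23 and Mki67 in 2 of 23.

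**Figure D2:**
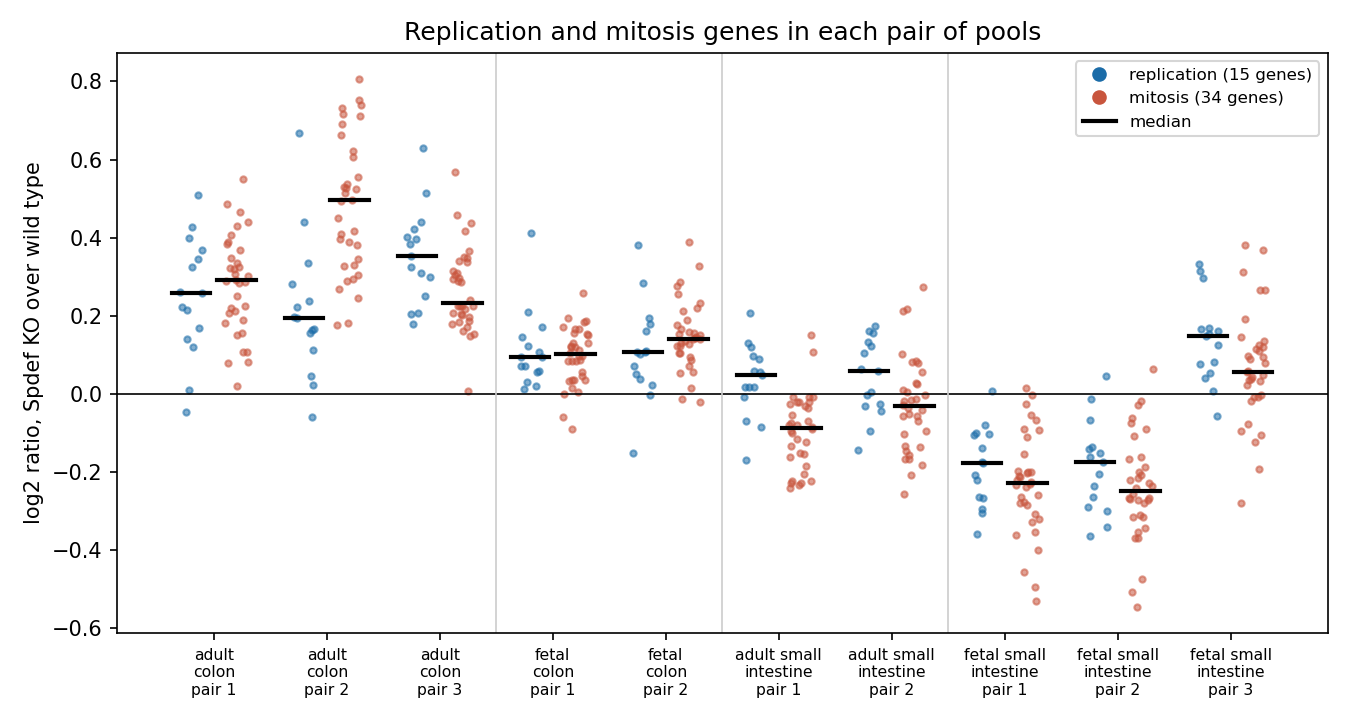
Log2 ratio of KO over wild type for the 15 replication genes (blue) and 34 mitosis genes (red) in each of the 10 pairs, with the median as a bar. The 3 adult colon pairs have all 6 medians between 0.19 and 0.50, and fetal small intestine pairs 1 and 2 lie lowest, with medians between -0.25 and -0.17.

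In fetal colon, 0 of the 49 genes passed (limma), where 0.287% of all genes passed. At an unadjusted p under 0.05 there were 6 of the 49 and 1112 of all 17076 genes. The median ratio of the 49 was 0.11, and 43 of them were higher in KO in both pairs, where 28.9% of all genes were. Ccnb1 had ratios of 0.08 and 0.14 in pairs 1 and 2, Mki67 of 0.10 and 0.25, Top2a of 0.08 and 0.14, Pcna of 0.15 and 0.19, Mcm2 of 0.06 and 0.10, and Foxm1 of -0.0004 and 0.01. The largest mean was that of Mcm3, at 0.35 ± 0.11 (adjusted p = 0.542). Both pairs had medians above 0, 0.10 in pair 1 and 0.14 in pair 2, and pair 2 alone remains without the slide of doubtful labels. With median centring of the arrays the median of the 49 turned to -0.07 and that of all genes moved to -0.14, so that the 49 were 0.07 above all genes.

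In adult small intestine, 0 of the cell cycle genes passed (limma), where 0.398% of all genes passed. At an unadjusted p under 0.05 there were 2 of them and 2065 of all 17076 genes. Their median ratio was -0.04, with 16 above 0 and 33 below. Of all 17076 genes, 7851 were above 0 and 9225 below, with a median of -0.009. With median centring of the arrays the median of the cell cycle genes was -0.21, with 3 of them above 0, and that of all genes moved to -0.09. The count of all genes above 0 under that scaling is not given here. The phases lay on opposite sides of 0 in both pairs, replication genes with medians of 0.05 and 0.06 and mitosis genes with medians of -0.09 and -0.03. Mki67 had ratios of -0.24 and -0.15, Ccnb1 of -0.08 and 0.03, Foxm1 of -0.13 and -0.06, Top2a of -0.01 and 0.27, Pcna of 0.13 and 0.16, and Mcm2 of 0.21 and 0.16. The smallest adjusted p was that of Cenpe, a kinetochore motor, at -0.24 ± 0.094 (adjusted p = 0.349).

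Fetal small intestine also had 0 genes past the threshold (limma), where 0.439% of all genes passed. At an unadjusted p under 0.05 there were 4 of the 49 and 1288 of all 17076 genes, and the pairs disagreed. In pairs 1 and 2, which count as 1 replicate, 47 of the 49 genes were lower in KO and the medians were -0.22 and -0.24. Of all 17076 genes, 9840 were lower in pair 1 and 9149 in pair 2. In pair 3, whose markers are those of colon, 38 of the 49 were higher in KO, where 9456 of all genes were. The median of the 49 there was 0.08. Ccnb1 had ratios of -0.53, -0.55 and -0.28 in pairs 1, 2 and 3, Mki67 of -0.22, -0.22 and 0.38, Top2a of -0.26, -0.32 and -0.10, Pcna of -0.31, -0.30 and 0.08, Mcm2 of -0.10, -0.14 and 0.15, and Foxm1 of -0.20, -0.22 and 0.03. Markers of some cells outside the epithelium had the same signs in pairs 1, 2 and 3. Medians were -0.38, -0.39 and 0.17 for fibroblasts and -0.27, -0.28 and 0.11 for smooth muscle. They were -0.18, -0.16 and 0.14 for endothelium and -0.09, -0.10 and 0.13 for neuron and glia. None of these markers passed in this group (0 of 7, 0 of 8, 0 of 7 and 0 of 7). Crypt stem cell markers (-0.12, -0.11 and 0.04) and erythroid markers (-0.07, -0.08 and 0.04) had these signs too. Those of T cells (0.04, 0.06 and 0.01), B and plasma cells (-0.01, -0.03 and -0.03) and macrophages and mast cells (0.01, -0.003 and 0.10) did not. The summed fibroblast intensity was 60180 to 205864 in KO pools and 82913 to 170580 in wild type pools, and that of smooth muscle 62376 to 287084 in KO pools and 75758 to 260054 in wild type pools. The part of any of these cell types in the cell cycle values was not tested. Without the slide that holds pair 3, which leaves 1 replicate in this group, the median was -0.23. With all pairs, Cks2, which binds the cyclin-dependent kinases, had the smallest adjusted p, at -0.35 ± 0.076 (adjusted p = 0.167). With all fetal pools averaged, the median was 0.03 (-0.05 without the slide), and these averages do not depend on a tissue label. The spread used in their test does, as it was taken within the labelled groups. In that test 0 of the 49 genes passed (limma), where 0.533% of all genes passed. At an unadjusted p under 0.05 there were 1 of the 49 and 1329 of all 17076 genes.

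The differences between groups were tested gene by gene, and 0 of the 49 genes passed in any of them. For adult colon minus adult small intestine, 49 of 49 differences were above 0, with a median of 0.40 and a range of 0.09 to 0.61. Of the 49, 35 had an unadjusted p under 0.05 (limma, 0 adjusted, where 0.158% of all genes passed). Of all 17076 genes, 8458 were above 0 and 1592 had an unadjusted p under 0.05. The smallest adjusted p of the 49 was that of Mad2l1, whose ratios were 0.34 in adult colon and -0.13 in adult small intestine, a difference of 0.46 ± 0.073 (adjusted p = 0.0786). The median difference was 0.44 for mitosis genes and 0.23 for replication genes. For adult colon minus fetal colon the median was 0.22, with 47 of 49 above 0 and 13 at an unadjusted p under 0.05 (0 adjusted, against 0.644% of all genes). Among all genes 8579 were above 0 and 2458 had an unadjusted p under 0.05. For the small intestine minus colon, over both stages, the median was -0.27, with 49 of 49 below 0 and 34 at an unadjusted p under 0.05 (0 adjusted, against 0.17% of all genes). Among all genes 8262 were below 0 and 1418 had an unadjusted p under 0.05. Adult minus fetal, over both tissues, had a median of 0.13 and 12 genes at an unadjusted p under 0.05 (0 adjusted, against 1.08% of all genes). These 12 of 49 were little above the share over all genes, of which 3319 of 17076 had an unadjusted p under 0.05. Without the slide of doubtful labels, the medians were 0.20 for adult colon minus fetal colon, -0.35 for small intestine minus colon and 0.20 for adult minus fetal. Only medians are given there, as few fetal replicates remain. The differences between groups share the adult colon pairs and are not separate evidence. Averaged over the 4 groups, the KO over wild type ratio had a median of 0.08, or 0.05 without the slide. With all pools, 0 of the 49 genes passed in that average (limma), where 1.79% of all genes passed. At an unadjusted p under 0.05 there were 20 of the 49 and 2858 of all 17076 genes.

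**Figure D3:**
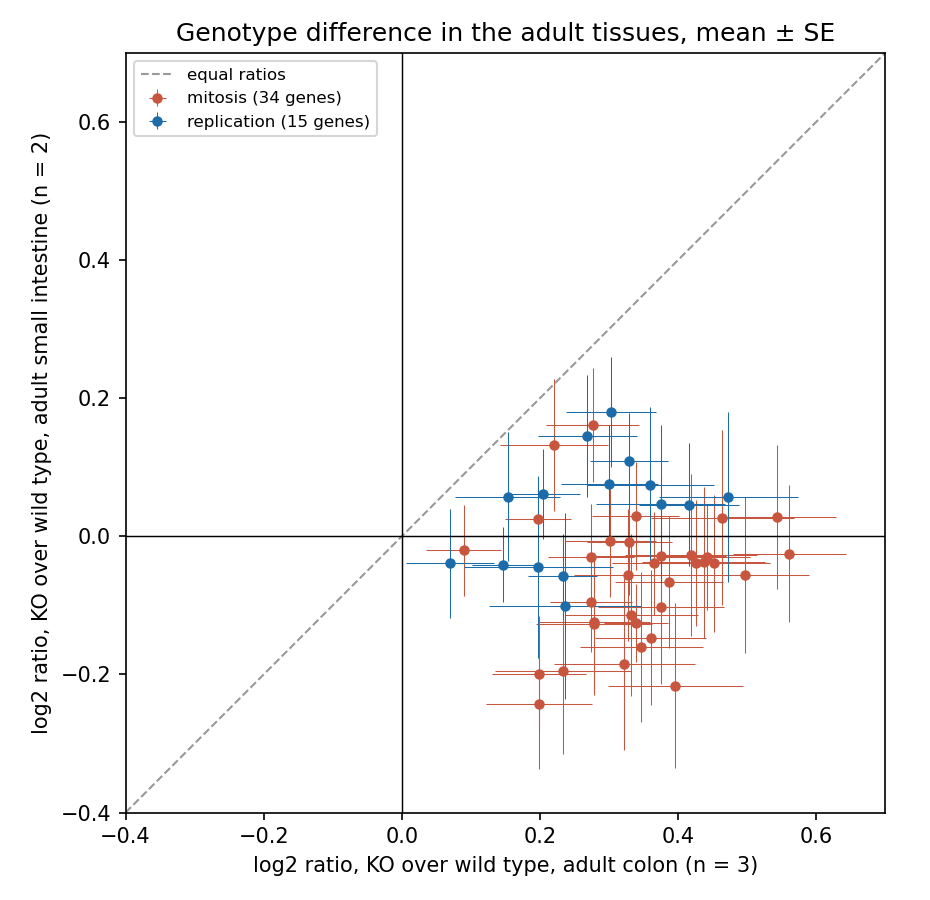
Mean log2 ratio of KO over wild type in adult colon (horizontal, n = 3) against adult small intestine (vertical, n = 2) for the 34 mitosis and 15 replication genes, with limma standard errors. All 49 points lie below the dashed line of equal ratios, with a median difference of 0.40.

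Genes of the same pathway that are not among the 49 were counted from 6 further lists in adult colon. Of 33 other replication genes measured, 14 rose and 0 fell, with a median of 0.20. They included Chaf1a, a chromatin assembly factor (0.42 ± 0.044, adjusted p = 0.00239), Rfc5, a subunit of the clamp loader (0.37 ± 0.040, adjusted p = 0.00314), and Gins2 of the replicative helicase (0.32 ± 0.051, adjusted p = 0.0123). Of 48 other mitosis genes, 14 rose and 0 fell, with a median of 0.20, among them the kinetochore gene Spc24 (0.40 ± 0.046, adjusted p = 0.00356), the separase Espl1 (0.38 ± 0.048, adjusted p = 0.00527) and the kinesin Kif2c (0.33 ± 0.054, adjusted p = 0.0128). Of 11 other E2F and MYC factors, 2 rose, E2f2 (0.76 ± 0.11, adjusted p = 0.0084) and E2f7 (0.25 ± 0.064, adjusted p = 0.0465), and the list's median was 0.08. Of 7 D-type cyclins and their kinases 0 passed (median 0.06), of 9 CDK inhibitors and pocket proteins 1 fell, Cdkn2b, an inhibitor of Cdk4 and Cdk6 (-0.28 ± 0.064, adjusted p = 0.0344, list median 0.07), and of 12 p53 and growth arrest targets 2 fell, Gas6 (-0.55 ± 0.11, adjusted p = 0.027) and Gas1 (-0.45 ± 0.10, adjusted p = 0.0363). Over all genes, 3.93% rose and 5.66% fell. These lists were drawn up with earlier results of these data known.

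Markers of cell types were measured in the same adult colon pools. Goblet cell markers had median ratios of -0.55, -0.46 and -0.64 in pairs 1, 2 and 3, 6 of 9 fell and 1 rose, and their summed intensity was 603130 to 708164 in KO pools and 730113 to 768398 in wild type pools. Markers of smooth muscle had medians of -0.25, -0.44 and -0.18 (0 of 8 passed), with a summed intensity of 188595 to 272702 in KO pools and 250099 to 305497 in wild type pools. Fibroblast markers had medians of -0.32, -0.13 and -0.25 (0 of 7 passed), with sums of 79137 to 94776 in KO pools and 91934 to 118971 in wild type pools. Neuron and glia markers were at -0.14, -0.22 and -0.28 (3 of 7 fell) and endothelial markers at -0.15, -0.04 and -0.25 (0 of 7 passed). These 5 lists had lower medians in KO in all 3 pairs, while mitosis and replication genes had higher ones.

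B and plasma cell markers were at 0.38, 0.01 and 0.72 (0 of 6 passed), with sums of 7304 to 10985 in KO pools and 7249 to 8727 in wild type pools, and T cell markers at 0.02, 0.05 and 0.37 (1 of 8 rose). Both had medians above 0 in all 3 pairs and were highest in pair 3. B and plasma cell markers were closest to 0 in pair 2, and T cell markers in pair 1. Macrophage and mast cell markers, at 0.08, 0.14 and 0.07 (1 of 9 rose), also had higher medians in KO in all 3 pairs. The cell cycle genes and the Paneth cell markers did so too. Sums for macrophage and mast cell markers were 7391 to 9150 in KO pools and 6254 to 8570 in wild type pools. Crypt stem cell markers were at -0.05, -0.07 and -0.15 (1 of 14 fell, 0 rose), colon epithelium markers at -0.22, -0.35 and -0.21 (2 of 10 fell) and Paneth cell markers at 0.19, 0.27 and 0.32 (2 of 9 rose). Pancreas markers were at -2.34, -0.10 and -2.41 (0 of 7 passed), and 0 of the 7 were below background in the wild type pools of pairs 1 and 3 against 2 of 7 in that of pair 2 (Cela2a and Pnlip). In pairs 1, 2 and 3, their summed intensity was 224325, 9196 and 318246 in wild type pools and 40705, 7270 and 50866 in KO pools. Of the markers of crypt stem and Paneth cells, Olfm4, Defa21 and Defa22 were not well above background in any of the 3 wild type pools. Summed Paneth cell intensity was 72235 to 165764 in KO pools and 14478 to 44807 in wild type pools. The part of any of these cell types in the cell cycle result was not tested. In adult small intestine, goblet cell markers were at -0.33 and -0.64 and Paneth cell markers at -1.07 and -1.49, beside cell cycle medians of -0.07 and -0.02.

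**Figure D4:**
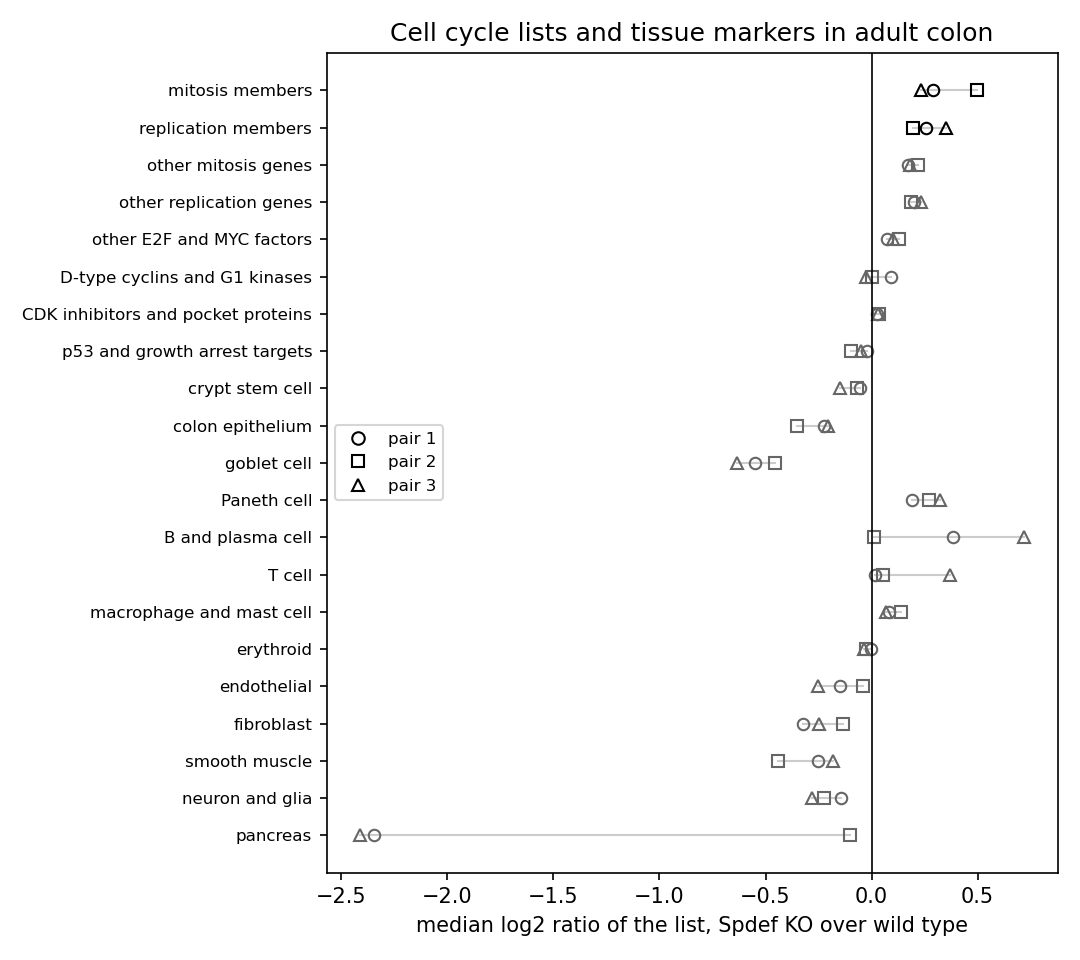
Median log2 ratio of KO over wild type in adult colon for the mitosis and replication genes described here (top), further cell cycle lists and cell type markers, with 1 symbol for each of the 3 pairs. The 5 topmost rows lie right of 0 in all pairs, while goblet cell, smooth muscle, fibroblast and neuron and glia markers lie left of 0.

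Levels without the knockout came from the wild type channel of each array, as log2 intensities. Across the 4 groups, adult colon had the lowest mean level for 40 of the 49 genes and fetal small intestine the highest for 32. How often all genes had such an order was not counted, so it is not shown to be particular to the 49. The top of the order of the 49 rests on the doubtful labels, since without their slide fetal colon was the highest for 36 genes and fetal small intestine for 9, while adult colon was the lowest for 37. The median level of the 49 was 10.26, 10.53 and 10.41 in the 3 adult colon pools and 11.11 and 10.90 in the 2 of adult small intestine. It was 11.07 and 11.57 in the 2 fetal colon pools and 11.12, 11.17 and 11.61 in the 3 of fetal small intestine. The 2 highest were fetal colon pool 2 and fetal small intestine pool 3, both with colon markers. Adult colon pool 1 differed from the mean of the other 2 in both directions, by -2.21 for Kif22 to 0.84 for Prc1. In it 7 genes lay at least 1 log2 unit below that mean (Kif22, Birc5, Mcm4, Ccnb2, Mcm3, Tyms and Uhrf1, named after their values were seen). None lay that far above it, but Prc1, Aurkb (0.77) and Ccne1 (0.76) were among those above. The share of all genes past this cut was not counted, and pair 1 includes the dimmest array.

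Adult minus fetal differences in wild type gut were below 0 for 42 of the 49 cell cycle genes, but only a minority passed the threshold. Over both tissues, 12 of the 49 genes were lower in adults and 0 higher (limma), where 10.8% of all genes were lower in adults and 22.2% passed in either direction. The median adult minus fetal difference was -0.48 for the 49, -0.71 for replication genes, of which 6 of 15 were lower, and -0.36 for mitosis genes, of which 6 of 34 were lower, against -0.03 over all genes. Every one of the 15 replication genes had a difference below 0, and 27 of the 34 mitosis genes did, where 8993 of all 17076 genes did. The difference between the phases was not tested. A total of 13 genes were lower in every adult replicate than in every fetal replicate, where 13.2% of all genes were.

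Pcna had wild type levels of 12.43, 12.92 and 12.60 in adult colon and 13.09 and 13.29 in adult small intestine, against 13.74 and 14.19 in fetal colon and 13.86, 13.87 and 14.40 in fetal small intestine. All adult pools were below all fetal pools, and the difference was -1.13 ± 0.19 (adjusted p = 0.00675), or 2.19-fold lower in adults. Mcm2 was at 9.72, 9.33 and 8.99 in adult colon and 9.66 and 9.57 in adult small intestine, against 10.64 and 10.17 in fetal colon and 10.63, 10.67 and 10.75 in fetal small intestine, again without overlap (-1.07 ± 0.19, adjusted p = 0.00835). E2f1, the activator of S phase genes, was at 7.62, 8.04 and 7.88 in adult colon and 8.35 and 8.28 in adult small intestine, against 8.61 and 9.56 in fetal colon and 9.20, 9.19 and 9.47 in fetal small intestine (-1.13 ± 0.22, adjusted p = 0.0114). Cyclin E1, Ccne1, differed by -1.17 ± 0.26 (adjusted p = 0.0196), with adult levels of 9.57 to 10.40 and fetal levels of 10.74 to 11.61.

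Among mitosis genes, Tpx2, a spindle assembly factor that activates Aurora A, was at 9.25, 9.08 and 9.15 in adult colon and 9.52 and 9.27 in adult small intestine, against 9.62 and 10.03 in fetal colon and 10.17, 10.22 and 10.48 in fetal small intestine (-0.80 ± 0.15, adjusted p = 0.00975). Cdk1 differed by -0.96 ± 0.21 (adjusted p = 0.0181), with levels of 9.29 to 9.87 in the adult pools and 10.35 to 11.22 in the fetal pools. Mad2l1 differed by -0.62 ± 0.16 (adjusted p = 0.0341), with adult levels of 9.35 to 9.85 and fetal levels of 10.04 to 10.65. Gmnn, of the replication genes, differed by -0.65 ± 0.15 (adjusted p = 0.0215), with adult levels of 13.15 to 13.47 and fetal levels of 13.65 to 14.34. The adult and fetal pools of these 4 genes did not overlap. Mki67 did not follow them. It was at 13.24, 12.77 and 13.27 in adult colon and 12.74 and 12.81 in adult small intestine, against 12.31 and 13.34 in fetal colon and 12.28, 12.33 and 13.01 in fetal small intestine, groups that overlap (0.19 ± 0.26, adjusted p = 0.633). The mitotic kinases as a role did not either, with 0 of 5 past the threshold and a median of 0.02. Top2a (adult 8.07 to 9.20, fetal 9.11 to 9.70) differed by -0.46 ± 0.19 and did not pass (adjusted p = 0.124). Nor did Ccnb1 (adult 8.60 to 10.21, fetal 9.83 to 10.67), at -0.61 ± 0.23 (adjusted p = 0.0936), and Foxm1 (adult 8.14 to 9.33, fetal 9.05 to 9.36), at -0.38 ± 0.13 (adjusted p = 0.0796). In these 3 the stages overlapped.

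**Figure D5:**
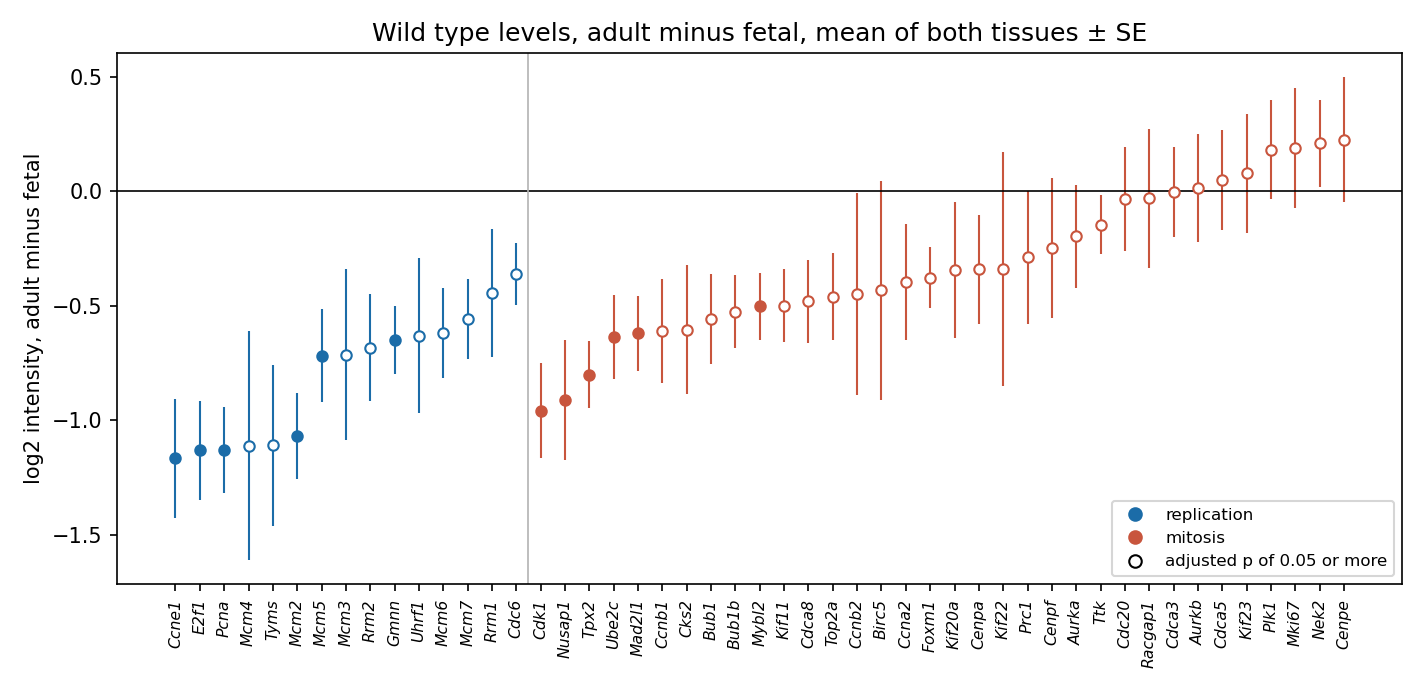
Wild type log2 intensity, adult minus fetal, as the mean of both tissues with its limma standard error, for the 15 replication genes (left) and the 34 mitosis genes (right). All 15 replication genes lie below 0, with 6 filled points past the threshold, and mitosis genes run from -0.96 for Cdk1 to 0.23 for Cenpe.

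By tissue, 5 genes were lower in adult colon than in fetal colon, Pcna (-1.32), Ccne1 (-1.42), E2f1 (-1.24), Mcm2 (-1.06) and Mybl2 (-0.87), where 2.86% of all genes were lower and 8.79% passed in either direction. Among alternatives, the call was lost in 7 of 24 for Pcna, 11 of 24 for Ccne1 and 16 of 24 for Mcm2. It was lost in 15 of 23 for E2f1 and 14 of 23 for Mybl2. In this comparison the median of the 49 was -0.60, with -0.95 for replication and -0.46 for mitosis genes. Without the slide of doubtful labels the median of the 49 was -0.82. In small intestine, Tpx2 (-0.94) was lower in adults and no other gene passed, where 3.67% of all genes were lower and 8.44% passed, with a median of -0.37. That call was lost in 14 of 24 alternatives, among them without the slide of doubtful labels, where the median of the 49 was -0.08. In adult colon minus adult small intestine, Foxm1 (-0.88) was lower, where 1.44% of all genes were lower and 2.97% passed, with a median of -0.29, and the Foxm1 call was lost in 17 of 23 alternatives. In fetal colon minus fetal small intestine 0 of the 49 genes passed (limma), where 0.00586% of all genes passed. At an unadjusted p under 0.05 there were 1 of the 49 and 87 of all 17076 genes, and the median of the 49 was -0.15. The last value depends on the doubtful labels, being 0.36 without their slide and -0.69 within it.

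The wild type counts of members depended on single pools and on scaling, and counts over all genes in the alternative runs are not given here. The 12 genes of the stage comparison became 2 without adult small intestine pool 2, 4 without its pool 1, 6 without adult colon pool 3, 5 without fetal small intestine pool 3, 5 without fetal colon pool 2, 20 without adult colon pool 1 and 6 without the slide of doubtful labels, where the median was -0.47. The count was 26 with slide as a random block, for which the correlation within slides was estimated below 0, at -0.74. It was 1 with each channel centred on its median, where the median of all genes moved to 0.07 and that of the 49 to -0.27. Under that scaling the adult colon minus fetal colon median of the 49 turned to 0.08, but that of all genes moved further, to 0.33. Relative to all genes, the 49 differed by -0.45 over both tissues and by -0.56 in colon as first scaled, and by -0.34 and -0.25 with channels centred.

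The further lists were also counted between stages, where 22.2% of all genes passed in either direction and 10.8% were lower in adults. Of the CDK inhibitors and pocket proteins, 4 of 9 were higher in adult than in fetal wild type gut, with Rb1, the retinoblastoma protein that restrains E2F, at 1.20 ± 0.16 (adjusted p = 0.00311) and Cdkn2b at 1.56 ± 0.22 (adjusted p = 0.00332), while Cdkn1c, an imprinted inhibitor of fetal growth, was lower, at -5.22 ± 0.27 (adjusted p = 6.84e-05). Of 7 D-type cyclins and G1 kinases, Ccnd3 (-2.23 ± 0.16, adjusted p = 0.000208) and Cdk4 (-2.15 ± 0.17, adjusted p = 0.000346) were lower in adults. Among the other replication genes 8 of 33 were lower and 0 higher, with a median of -0.51, and among the other mitosis genes 9 of 48 were lower and 0 higher, with a median of -0.27. Of 11 other E2F and MYC factors, 3 were higher and 1 lower, Mycn, at -1.93 ± 0.22 (adjusted p = 0.00167). Of 12 p53 and growth arrest targets 1 was higher and 2 lower. Markers of other cells also differed between adult and fetal gut, with 2 of 7 lower for neuron and glia (median -1.58), 5 of 7 lower for endothelium (-0.66), 2 of 9 higher for goblet cells (0.64) and 6 of 9 higher for Paneth cells (2.75), and their part in the stage difference was not tested.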

How the data were processed

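Pools of RNA from Spdef KO and wild type mouse gut were hybridised in pairs on two-colour Agilent arrays, each pair with a dye swap. Spot intensities were extracted with Agilent Feature Extraction 9.5.3, per the file headers, which also give the log10 ratio of Cy5 over Cy3 that the authors deposited. The deposited value table holds log2 ratios of the same arrays, with 47.8% to 72.2% of a column's values exactly 0 and every column median 0, and was used as an alternative; how the authors scaled it is not given in the sources used here.

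Mean signals were background-corrected (normexp, offset 50) and loess-normalized in limma 3.58.1 (R 4.3.3), with control spots at weight 0. Ratios were turned to KO over wild type, dye swaps averaged, and 1 term per group fitted to 9 replicates with 5 residual degrees of freedom. The filter on dim signal asked that, in KO or in wild type, a probe exceed background clearly on all arrays of 1 group or more, which left 24896 of 41174 probes and 17076 genes. Each p is two-sided and was adjusted by Benjamini and Hochberg's method across the 17076 genes, with 0.05 as the threshold. Wild type levels are log2 intensities after loess and Aquantile scaling. Of the probes, 25318 were named by accession, 6949 by current symbol and 2937 by older symbol, and 8175 kept the file's name.

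The members, lists and tests were chosen with earlier results of these data known. Values by pair are given for the 8 genes with the smallest adjusted p and for Mki67, Top2a, Ccnb1, Pcna, Mcm2 and Foxm1, with up to 3 genes per further list. Contrasts between the adult tissues and between the stages of colon, those that pool the fetal groups, and those that leave out the dimmest array or the slide of doubtful labels, and the group order without that slide, were added after seeing the data. The fit was tested on simulated data.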

Additional observations from a re-analysis of the deposited data

Results flagged for a closer look

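Medians of the mitosis genes lay on opposite sides of 0 in the adult tissues. The median log2 ratio of KO over wild type of the 34 mitosis genes was above 0 in all 3 adult colon pairs and below 0 in both adult small intestine pairs. The mean of the pair medians was 0.339 in adult colon and -0.0608 in adult small intestine, a difference of 0.40. This difference of medians was not tested. Gene by gene, 0 of the 49 genes passed for adult colon minus adult small intestine (limma). At an unadjusted p under 0.05 there were 35 of the 49 and 1592 of all 17076 genes.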

How the results depend on the processing

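Counts below are of the 49 genes past the threshold, without counts over all genes beside them, and medians are log2 values of the 49. In adult colon, KO over wild type, the 34 genes became 0 with median centring or with the group fitted alone, 7 with a replicate block, 7 with the authors' value table and 19 without the slide of doubtful labels, and leaving out 1 replicate gave 4 to 38. The median there was 0.399 with processed signals, 0.241 with median centring and 0.253 with the replicate block, with 0.272 to 0.340 when 1 replicate was left out. The fetal colon median was 0.143 with processed signals, 0.146 with the value table and -0.0724 with median centring (0.0952 to 0.135 without 1 replicate), and the replicate block passed 1 gene. The adult small intestine median was -0.213 with median centring (-0.0709 to -0.0165 without 1 replicate), and that of fetal small intestine ran from -0.227 to 0.0809 without 1 replicate. With fetal small intestine pairs 1 and 2 kept separate, 2 genes passed in that group, 2 for small intestine minus colon and 1 for adult colon minus adult small intestine. Small intestine minus colon had 2 with the replicate block and 1 with the value table. The median of adult colon minus adult small intestine was 0.465 with median centring and 0.339 with the replicate block (0.319 to 0.419 without 1 replicate), and that of adult colon minus fetal colon was 0.329 with median centring (0.157 to 0.236). Without 1 replicate, the mean of the 4 groups had 0 to 1 genes and a median of 0.0451 to 0.120, adult minus fetal a median of 0.0687 to 0.203, small intestine minus colon -0.361 to -0.182 and all fetal pools -0.0557 to 0.0960.

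In wild type, the 12 genes of adult minus fetal became 17 with processed signals, 26 with slide as a random block, 7 with a trended and robust prior, 19 with pairs separate, 1 with channel centring, 6 from the KO channel, 2 from Cy3 alone, 20 from Cy5 alone and 6 without the slide, and 2 to 20 without 1 replicate (median -0.649 to -0.376). In small intestine, the 1 gene became 2 with processed signals or the random block, 5 with the mean of all probes or pairs separate, 4 from Cy5, and 0 with the strict filter, the trended prior, channel centring, the KO channel, Cy3 or without the slide, and 0 to 3 without 1 replicate (median -0.645 to -0.0822). In colon, the 5 genes became 9 with processed signals, 8 with pairs separate, 13 from Cy5, 3 with no filter, the strict filter, the random block, the replicate block or without the slide, and 0 with channel centring (median 0.0816), the KO channel or Cy3, and 0 to 5 without 1 replicate (median -0.817 to -0.446). For adult colon minus adult small intestine, the 1 gene became 3 with pairs separate, 2 from Cy5, and 0 with no background subtraction, the strict filter, quantile scaling, the replicate block, the trended prior, channel centring (median 0.125), the KO channel (median -0.00356), Cy3 or without the slide, and 0 to 1 without 1 replicate (median -0.388 to -0.225, and -0.454 with processed signals). For fetal colon minus fetal small intestine the median was -0.693 with channel centring, 0.363 without the slide and -0.692 within it, and -0.407 to 0.109 without 1 replicate.

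The labels' replicate numbers did not pair the pools: correlations of deviations were -0.133 to 0.152 for equal numbers and -0.159 to 0.159 for others. Where a left-out replicate leaves 1 in a group, that one is assumed to vary like the rest. A fixed slide block left 0 residual degrees of freedom in wild type and could not be fitted. Of the values of single genes, 2151 kept their sign and their side of the threshold, 76 changed sign without passing the threshold in either setting, 195 lost the call and 32 gained it, with 0 changes of sign among those past the threshold in either setting. The cause of these changes was not tested. With 2 to 3 pools a group, the number of arrays limits precision.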
